A study of Mus musculus with 15 samples.

Results

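Pre-cDC, the precursors that give rise to classical dendritic cells, were taken from mouse bone marrow and set against granulocyte-macrophage progenitors (GMP) from the same tissue, which compares a late dendritic precursor with the progenitor of neutrophils and monocytes. Each population has 2 Affymetrix arrays of 1 colour, picked by their titles, so that 4 of the 15 arrays of the series enter the comparison. All 4 samples came from wild-type C57Bl/6 mice at steady state, with no treatment. Pre-cDC were sorted for low CD117 and for CD135 and CD11c, without CD16/32 and without lineage markers. GMP were sorted for high CD117 and for CD16/32, without CD135 and CD11c, and their label names no lineage gate. Both sorts left out cells positive for PI, IL7R or MHCII. Common dendritic cell progenitors (CDP) and common myeloid progenitors (CMP), with 2 arrays each, were part of the same statistical fit and serve below to place the values. Both were sorted as CD135+, CD16/32- and CD11c-, CDP with intermediate and CMP with high CD117. The labels number the arrays WT1 and WT2 but do not say that the numbers stand for separate animals, nor whether animals were pooled, and a p-value here reflects no more than how far these arrays spread.

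GMP are committed to the granulocyte and monocyte lineages, and cells at this stage make the proteases and the peroxidase that are later stored in primary (azurophil) granules. Pre-cDC leave the bone marrow through the blood and complete their development into the cDC1 and cDC2 subsets in lymphoid and other tissues, under the control of the receptor FLT3 (CD135) and of factors such as IRF8, IRF4, BATF3 and ZBTB46. Classical dendritic cells take up antigen and show peptides to T cells on MHC class II, whose genes are switched on by the coactivator CIITA.

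Slamf7 and L1cam were taken as markers of pre-cDC, and Mpo and Ctsg as markers of GMP. The labels do not name these genes. They were chosen with earlier results of these data known, so the side on which they stand is not an independent check. All values are intensities as deposited, 1 per array. Slamf7, a SLAM family receptor gene, read 1152 and 1457 in the pre-cDC arrays, against 6.8 and 5.43 in the GMP arrays. L1cam, which encodes a cell adhesion molecule, read 2621 and 2901 in pre-cDC and 9.36 and 8.62 in GMP. Mpo, the myeloperoxidase gene, read 16.8 and 20.1 in pre-cDC and 8478 and 8764 in GMP, and Ctsg, which encodes cathepsin G, read 17.8 and 13 in pre-cDC and 6865 and 6863 in GMP. Medians of the single arrays were 15.95 to 17.44 over the 8 progenitor arrays, and each of these genes was close to or below its array's median on both arrays of the lower population. A gene is called dim below where the mean of both arrays was at or below the median of that population. The genes of the sorted surface proteins followed the gates: Flt3 (CD135) read 1322 and 1434 in pre-cDC and 35.9 and 31.8 in GMP, Itgax (CD11c) 1537 and 1563 in pre-cDC and 14.7 and 13.6 in GMP, Kit (CD117) 36.3 and 36.8 in pre-cDC and 905 and 1085 in GMP, and Fcgr3 (CD16) 7.03 and 12 in pre-cDC and 1774 and 1729.9 in GMP. These genes follow from the sort and are not a finding. Fcgr2b, which encodes the CD32 part of the same gate, read 722 and 766 in pre-cDC and 723 and 658 in GMP. Its log2 difference was 0.10 (SE 0.105, adjusted p = 0.478), so that its groups overlapped while those of Fcgr3 did not. The 5 probe sets of Fcgr2b ran from -0.37 to 0.10, and 1 of them was called lower in pre-cDC. Il7r, whose protein was gated out of both populations, read 31.6 and 26.9 in pre-cDC and 11.4 and 8.53 in GMP.

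Over the whole array, 8013 of 18193 genes were called (adjusted p under 0.05 in the limma fit across all genes), which is 44% of the genes tested. Of these, 3814 (21%) were higher and 4199 (23.1%) lower in pre-cDC. A further requirement of at least a 2-fold difference left 2444 genes (13.4%), 1259 higher (6.92%) and 1185 lower (6.51%). Counts of called list members below are to be read against the 21% higher and 23.1% lower over all genes. The 2 arrays of each population did not overlap for 69.4% of all genes, so separate groups were the usual case. At least 8-fold differences were found for 127 genes on the higher side and 57 on the lower side. The median log2 difference of all genes was -0.006. Log2 differences are between values of log2(intensity + 32), so they understate the change of a gene that is dim in one population. The 2 arrays of a population lay close together: 2 genes were 2-fold apart between the pre-cDC arrays and 9 between the GMP arrays, and the log2 values correlated across genes at 0.996 in pre-cDC and 0.9968 in GMP, where genes are not independent replicates. RNA of sorted populations was measured in bulk, so fewer cells of a type and less RNA per cell cannot be told apart.

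**Figure D1:**
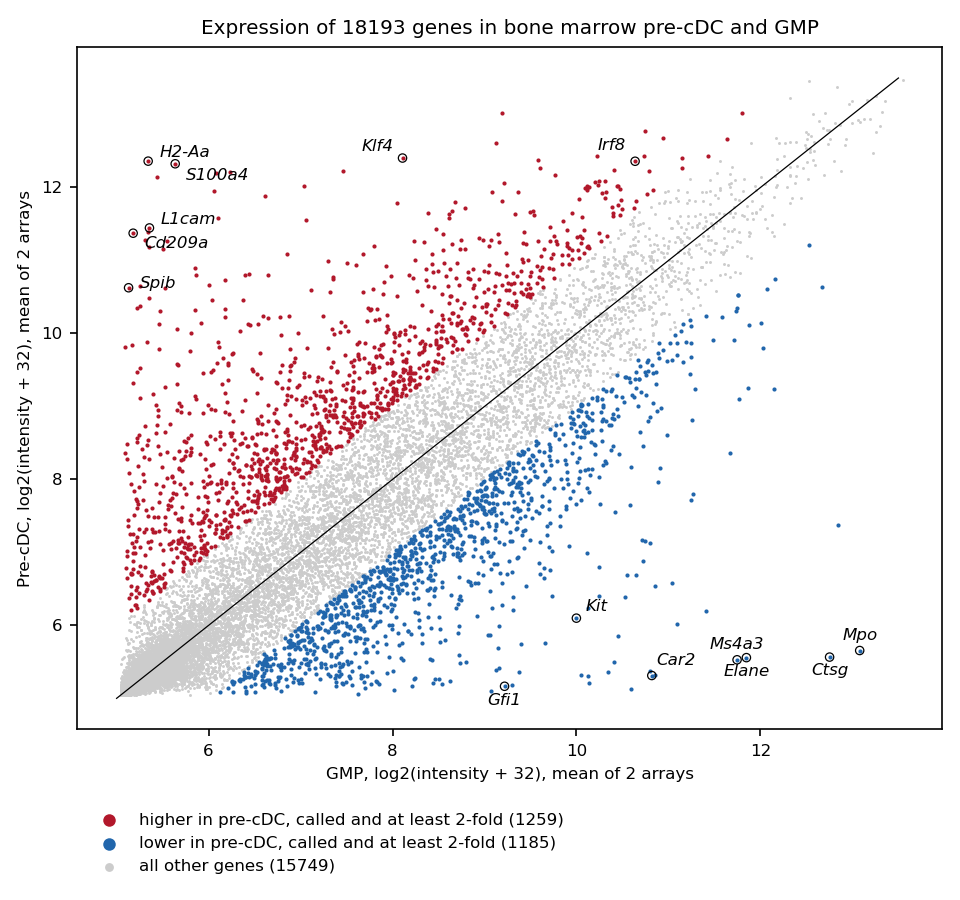
Level of 18193 genes in GMP (horizontal) and in pre-cDC (vertical), each the mean of 2 arrays on the scale log2(intensity + 32), with the line of equal levels. The 1259 genes in red were called at least 2-fold higher and the 1185 in blue at least 2-fold lower in pre-cDC, and Mpo and Ctsg lie farthest to the lower right, opposite H2-Aa and S100a4 at the upper left.

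By the naming rule given with the processing, the 12 largest rises in pre-cDC were led by H2-Aa, Cd74 and S100a4. The 12 largest falls were led by Mpo, Ctsg and Elane. H2-Aa, the alpha chain gene of the MHC class II molecule I-A, read 4937 and 5538 in pre-cDC, against 8.99 and 8.2 in GMP, a log2 difference of 7.02 (SE 0.197, adjusted p = 1.6e-11). Cd74, the gene of the invariant chain that guides class II molecules to the endosome, read 4387 and 4640.0 in pre-cDC and 11.5 and 11.1 in GMP (6.71, SE 0.263). S100a4, which encodes a calcium-binding protein of motile cells, read 5079 and 5118 in pre-cDC and 24.9 and 11.5 in GMP (6.69, SE 0.143). All 3 genes were bright on both pre-cDC arrays and none exceeded 24.9 on a GMP array. Cd209a, a C-type lectin gene of the DC-SIGN family, read 2608 and 2635 in pre-cDC and 5.6 and 2.95 in GMP (6.19, SE 0.11). The other genes among the 12 largest rises were Ahnak (6.13), which encodes a very large scaffold protein, L1cam (6.09), the class II beta chain gene H2-Eb1 (6.05), the galectin-3 gene Lgals3 (5.99), Plbd1 (5.96), S100a6 (5.90), Upb1 (5.84) and the interferon-inducible gene Ifi27l2a (5.71). Their adjusted p-values lay between 6.21e-13 for Cd209a and 2.91e-10 for Cd74.

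Mpo had the largest fall, with a log2 difference of -7.42 (SE 0.0932, adjusted p = 4.2e-14), followed by Ctsg at -7.19 (SE 0.0981). Elane, the neutrophil elastase gene, read 15.6 and 14.7 in pre-cDC and 3594 and 3712 in GMP (-6.29, SE 0.117, adjusted p = 8.35e-13). Ms4a3, which encodes a membrane protein of early myeloid cells, read 15.5 and 12.8 in pre-cDC and 3386 and 3419 in GMP (-6.22, SE 0.102). The values of these 4 genes on the pre-cDC arrays did not exceed 20.1, so they were near the array median there. Prtn3, the proteinase 3 gene, kept a measurable level in pre-cDC, with 163 and 110.0 against 7245 and 7344 in GMP (-5.46, SE 0.127). The other genes among the 12 largest falls were Nkg7 (-5.53), a granule membrane protein gene best known from cytotoxic lymphocytes, the carbonic anhydrase gene Car2 (-5.51), the haptoglobin gene Hp (-5.46), Fcgr3 (-5.43), the glutathione transferase genes Gstm1 (-5.20) and Mgst1 (-4.97), and S100a8 (-5.08), which encodes part of the neutrophil protein calprotectin.

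**Figure D2:**
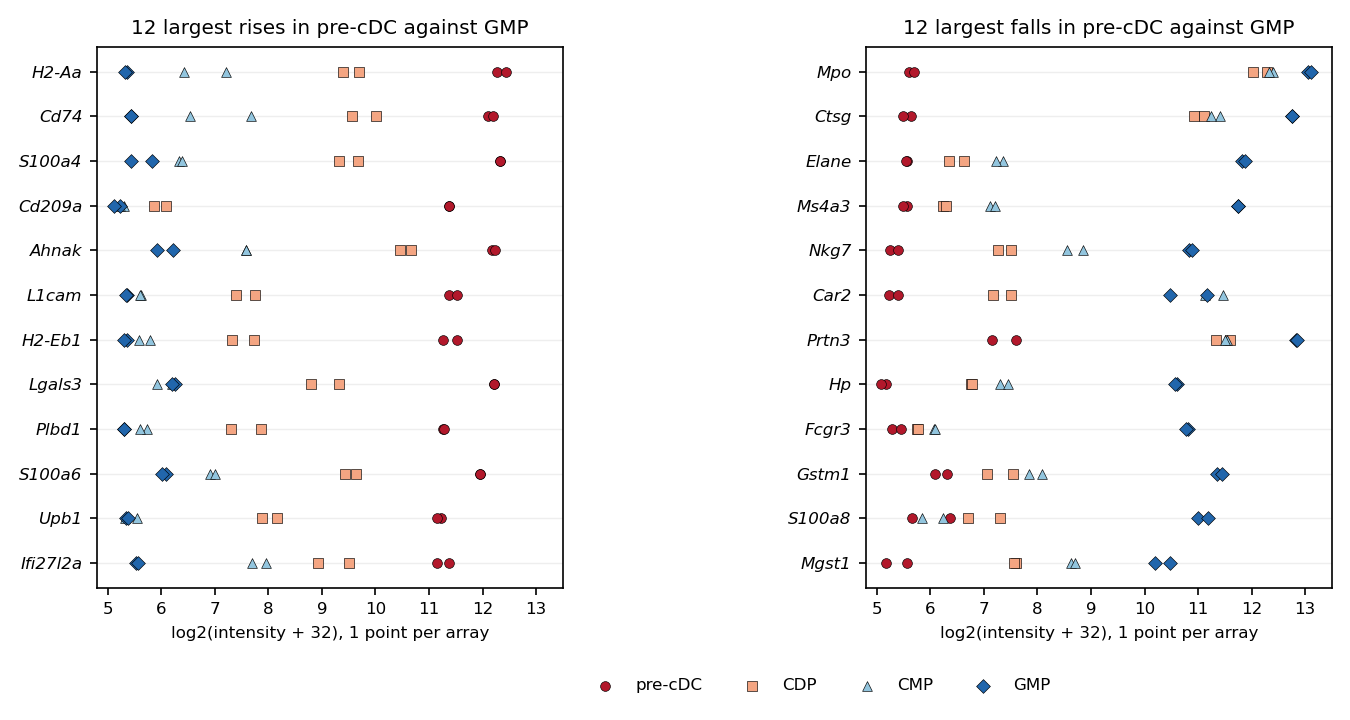
Intensities, on the scale log2(intensity + 32), of the 12 largest rises (left) and 12 largest falls (right) in pre-cDC against GMP, with 1 point for each of the 2 arrays of pre-cDC, CDP, CMP and GMP. The CDP points of the rises lie between those of pre-cDC and GMP in every row, while among the falls Mpo, Ctsg and Prtn3 stay bright in CDP and CMP and Elane, Ms4a3 and Hp do not.

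The CDP and CMP arrays place these differences. Mpo read 16.8 and 20.1 in pre-cDC, 4123 and 4962 in CDP, 5397 and 5071 in CMP and 8478 and 8764 in GMP, and Ctsg read 17.8 and 13 in pre-cDC, 1900.0 and 2168 in CDP, 2686 and 2398 in CMP and 6865 and 6863 in GMP. For both genes, and for Prtn3 (2561 and 3064 in CDP), pre-cDC were the low population and the other 3 were bright. Elane showed another order, with 15.6 and 14.7 in pre-cDC, 49.2 and 67 in CDP, 132 and 118 in CMP and 3594 and 3712 in GMP, so that GMP alone were bright. Ms4a3 (43.5 and 46.1 in CDP) and Hp (76.9 and 77.6 in CDP) had the order of Elane. Against CDP, the log2 difference of pre-cDC was -6.50 for Mpo and -5.44 for Ctsg (adjusted p = 2.23e-13 and 1.95e-12), and -0.93 for Elane and -0.73 for Ms4a3 (adjusted p = 3.62e-05 and 8.65e-05). The comparisons with CDP and with GMP use the same pre-cDC arrays and are therefore not independent of each other.

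The sequences before the start sites of the 3 largest falls in pre-cDC against GMP are shown. These genes were selected by that fall alone, and Elane differed from Mpo and Ctsg in CDP and CMP. Whether they share regulation was not tested. Each run is the 250 bases upstream of the RefSeq start in GRCm38.p6, 5′ to 3′ on the strand of the gene, and capitals mark GAGGAAG, a core recognised by PU.1 and other Ets factors. The Mpo run is chr11:87793534-87793783 on the plus strand, the Ctsg run chr14:56102575-56102824 on the minus strand and the Elane run chr10:79886062-79886311 on the plus strand.
Mpo: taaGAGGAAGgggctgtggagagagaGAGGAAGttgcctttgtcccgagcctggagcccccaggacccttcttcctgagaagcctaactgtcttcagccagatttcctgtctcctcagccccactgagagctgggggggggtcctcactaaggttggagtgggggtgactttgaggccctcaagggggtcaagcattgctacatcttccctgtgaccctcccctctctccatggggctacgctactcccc
Ctsg: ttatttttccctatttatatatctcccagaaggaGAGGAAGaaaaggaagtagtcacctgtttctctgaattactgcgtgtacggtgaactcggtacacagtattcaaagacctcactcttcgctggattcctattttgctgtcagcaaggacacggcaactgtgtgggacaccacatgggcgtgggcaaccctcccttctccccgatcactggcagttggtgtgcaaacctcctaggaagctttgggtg
Elane: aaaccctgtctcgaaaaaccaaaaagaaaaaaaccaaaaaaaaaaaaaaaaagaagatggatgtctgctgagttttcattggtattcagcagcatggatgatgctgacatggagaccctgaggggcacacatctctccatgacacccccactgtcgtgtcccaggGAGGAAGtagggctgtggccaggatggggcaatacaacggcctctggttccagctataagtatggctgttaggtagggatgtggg
GAGGAAG was present at positions -247 to -241 and -224 to -218 from the start in Mpo, -216 to -210 in Ctsg and -85 to -79 in Elane. Among 11 promoters of the primary granule list, 5 held it (45.5%), the other 2 being Prtn3 and Clec5a. It was present in 10.4% of all 27025 promoters, in 10.8% of those of genes called at least 2-fold lower and in 12.6% of those of genes called at least 2-fold higher in pre-cDC. The C/EBP core TTGCAAT, found in 1.98% of all promoters, and the AP-1 site TGAGTCA, found in 4.43%, were not in these 3 runs. Both strands were searched for each motif, and no motif overlapped another in the printed runs. A match describes the letters and is not a measured binding site.

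Of 13 measured members of the primary granule list, 11 were lower and 1 higher in pre-cDC, with a median log2 difference of -3.47. The list is broad. It also holds the membrane protein gene Ms4a3, the receptor gene Clec5a, the eosinophil genes Epx and Prg2, and Igfbp4, whose own value is the median. The summed intensity of the list was 4858 and 4398 in the pre-cDC arrays and 42936 and 43158 in the GMP arrays. Cst7, the gene of the cysteine protease inhibitor cystatin F, fell (-3.59, SE 0.132), as did Igfbp4 (-3.47), the gene of a binding protein of insulin-like growth factors, Serpinb1a (-2.94), the gene of an inhibitor of neutrophil serine proteases, and Srgn (-2.04), the gene of the proteoglycan that holds granule proteins. Lyz2, the lysozyme gene shared by macrophages and granulocytes, was the member that was higher, at 2436 and 2306 in pre-cDC and 1001 and 727 in GMP (1.44, SE 0.134, adjusted p = 1.09e-06). Epx, the eosinophil peroxidase gene, was dim in both populations (-0.04, adjusted p = 0.741).

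The secondary granule and neutrophil list, which covers proteins made later in neutrophil development, moved less uniformly: 13 of 24 members were lower and 3 higher (median -0.45). S100a8 read 50.7 and 18.7 in pre-cDC and 2019 and 2292 in GMP, and S100a9, its partner in calprotectin, read 38.6 and 9.19 in pre-cDC and 645 and 926 in GMP. Hp read 4.22 and 1.89 in pre-cDC and 1533 and 1481 in GMP, and the chitinase-like gene Chil3 10.1 and 9.27 in pre-cDC and 122 and 199 in GMP. Of the 4 arrays, only those of GMP were bright for these 4 genes, and the groups did not overlap, as for 69.4% of all genes. Ltf, the lactoferrin gene and a classic secondary granule marker, read 7.79 and 7.51 in pre-cDC and 10.7 and 7.96 in GMP (log2 difference -0.06, adjusted p = 0.587), below the median of its array in every sample. The 3 members that were higher in pre-cDC, Cybb (2.20), Cyba (1.44) and Ncf1 (0.54), encode subunits of the NADPH oxidase of phagocytes, and the oxidase gene Ncf4 was lower (-2.14). A second probe set of Ncf1 was called in the opposite direction. The receptor gene Csf3r, through which G-CSF drives neutrophil production, read 31 and 35 in pre-cDC and 237 and 255 in GMP (-2.10, SE 0.124).

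Most genes of antigen presentation were higher in pre-cDC. Both sorts had excluded cells with MHC class II on the surface, so the values are those of the RNA in cells gated as negative for the protein. Of 27 measured members of the MHC class II and presentation list, 20 were higher and 2 lower, with a median of 1.31. Summed intensities were 52106 and 53094 in pre-cDC and 17767 and 17896 in GMP. H2-Eb1 read 2408 and 2919 in pre-cDC and 9.3 and 7.77 in GMP, and the I-A beta chain gene H2-Ab1 read 3549.9 and 3939 in pre-cDC and 66.1 and 65 in GMP (5.27, SE 0.163). H2-Aa and H2-Eb1 were below the array median on both GMP arrays, and H2-Ab1 was above it. Ciita, the class II coactivator gene, read 140.5 and 159 in pre-cDC, 17.9 and 15.5 in CDP and 7.83 and 9.39 in GMP (2.16 against GMP, SE 0.0886, adjusted p = 4.53e-10). Marchf1, whose product is a ubiquitin ligase that removes class II from the surface of immature dendritic cells, read 519.7 and 528 in pre-cDC and 5.71 and 6.79 in GMP (3.86, SE 0.102). Ifi30, the gene of a lysosomal thiol reductase that unfolds antigens, read 4710.4 and 4817 in pre-cDC and 142 and 147 in GMP (4.76, SE 0.115).

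The class I chain genes H2-K1, H2-D1 (0.52) and B2m differed by less than 2-fold for the probe sets used, while Tap1 (1.29) and Tapbp (1.31), whose products load peptide on class I, rose by more. Of the 9 probe sets of H2-D1, 4 were called higher and 1 lower, with log2 differences from -0.28 to 2.59. H2-K1, a class I heavy chain gene, read 3720.1 and 3866 in pre-cDC and 2742 and 2996 in GMP (0.40, SE 0.0701, adjusted p = 0.000342). B2m, the light chain of class I molecules, read 5891 and 5836 in pre-cDC and 5937 and 5865 in GMP (-0.01, SE 0.0543, adjusted p = 0.92), so its groups overlapped. Rfx5, Rfxap, Ctsl and H2-Eb2 also did not pass the test (log2 differences -0.11 to 0.08). Tap2 and Cd1d1, a peptide transporter gene and a gene of lipid antigen presentation, were the 2 members that were lower (-0.69 and -1.49). Both were brighter in CDP, with 604 and 744 for Tap2 and 511 and 542 for Cd1d1.

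The sequences before class II genes are shown because these genes were higher in pre-cDC than in GMP. Capitals mark CTGATTG, the inverted CCAAT core of the class II Y box, a motif that was added after the values were seen. The H2-Aa run is chr17:34287824-34288073 on the minus strand and the H2-Eb1 run chr17:34305617-34305866 on the plus strand of GRCm38.p6, again from RefSeq and 250 bases long.
H2-Aa: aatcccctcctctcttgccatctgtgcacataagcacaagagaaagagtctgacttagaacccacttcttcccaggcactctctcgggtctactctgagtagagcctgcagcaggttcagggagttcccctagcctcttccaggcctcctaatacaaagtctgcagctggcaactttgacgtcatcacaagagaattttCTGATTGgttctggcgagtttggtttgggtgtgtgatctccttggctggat
H2-Eb1: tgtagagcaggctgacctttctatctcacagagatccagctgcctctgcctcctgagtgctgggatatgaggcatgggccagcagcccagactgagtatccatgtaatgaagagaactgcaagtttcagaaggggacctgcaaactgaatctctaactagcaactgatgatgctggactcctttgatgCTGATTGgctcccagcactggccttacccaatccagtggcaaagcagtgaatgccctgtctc
CTGATTG was present at positions -51 to -45 in H2-Aa and -62 to -56 in H2-Eb1, and in 7 of 21 promoters of the presentation list (33.3%). The other 5 were H2-Eb2, H2-Oa, H2-D1 and the divergently transcribed neighbours Psmb9 and Tap1, whose start sites lie close together. It was present in 5.59% of all promoters and in 5.84% of those of genes called at least 2-fold higher in pre-cDC. Of the other genes with the largest rises, S100a4 (chr3:90603520-90603769, plus strand) and Cd209a (chr8:3748985-3749234, minus strand) held none of the 4 motifs in the 250 bases.
S100a4: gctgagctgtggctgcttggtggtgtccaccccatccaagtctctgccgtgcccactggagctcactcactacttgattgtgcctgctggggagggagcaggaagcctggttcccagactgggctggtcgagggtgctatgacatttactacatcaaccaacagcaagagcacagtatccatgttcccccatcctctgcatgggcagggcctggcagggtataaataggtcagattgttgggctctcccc
Cd209a: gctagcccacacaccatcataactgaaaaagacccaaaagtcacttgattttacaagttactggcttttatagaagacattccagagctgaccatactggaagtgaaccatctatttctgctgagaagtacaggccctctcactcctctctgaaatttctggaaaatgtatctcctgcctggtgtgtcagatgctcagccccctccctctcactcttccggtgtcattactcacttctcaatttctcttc
These 2 runs are printed because S100a4 and Cd209a had the largest rises next to H2-Aa among the promoters shown here, and they carry no capitals.

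Dendritic cell transcription factor genes were mostly higher in pre-cDC: 22 of 29 measured members were called higher and 3 lower, with a median of 1.38. Spib, an Ets factor gene related to PU.1, read 1524 and 1573 in pre-cDC and 2.4 and 3.66 in GMP (5.50, SE 0.0972, adjusted p = 6.21e-13). Klf4, a zinc finger factor gene of monocytes and of part of the cDC2, read 5042 and 5753 in pre-cDC and 273 and 218 in GMP (4.29, SE 0.113). Irf4, needed for cDC2 function, read 357 and 437 in pre-cDC and 7.92 and 7.25 in GMP (3.43, SE 0.106). Spib and Irf4 lay below the array median on every GMP array and far above it on both pre-cDC arrays. Zbtb46, a factor gene restricted to classical dendritic cells among immune cells, read 383 and 422 in pre-cDC and 12.8 and 18.8 in GMP (3.19, SE 0.146). Mycl, the Myc paralogue of dendritic cells, read 333 and 336 in pre-cDC and 5.4 and 5.07 in GMP (3.30, SE 0.109), and the repressor gene Bcl6 read 658 and 699.5 in pre-cDC and 31.6 and 34.5 in GMP (3.45, SE 0.122). All of these groups were separate, as they were for 69.4% of all genes tested.

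Irf8, which is required for cDC1 and for monocyte development, was bright in both populations and still higher in pre-cDC, with 4989.5 and 5468 against 1565 and 1556 in GMP (1.72, SE 0.0758, adjusted p = 8.55e-10). Batf3, a cDC1 factor gene, read 109 and 113 in pre-cDC and 4.21 and 6.16 in GMP (1.94, SE 0.0926). Id2, a factor gene needed by cDC1, read 159 and 143 in pre-cDC and 34.2 and 37.1 in GMP (1.44, SE 0.118). Tcf4, the gene of the E protein E2-2 of plasmacytoid dendritic cells, read 2463 and 2757 in pre-cDC and 337 and 345 in GMP (2.82, SE 0.0892), and Bcl11a 2449 and 2429 in pre-cDC and 231 and 314 in GMP (3.04, SE 0.115). Id2, whose product blocks E proteins, and Tcf4, which encodes one, were thus both higher. Relb, an NF-kB subunit gene, read 46.3 and 44.3 in pre-cDC and 4.08 and 5.54 in GMP (1.07). The 3 members that were lower in pre-cDC were Nfil3 (-0.97, SE 0.112), Runx3 (-0.85, SE 0.108) and Tcf3 (-0.52, SE 0.128). Id3, Nr4a3, Ikzf3 and Batf did not pass the test (log2 differences -0.29 to 0.15).

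The factor genes differed in whether CDP already had the level of pre-cDC. Spib (31.3 and 29.5 in CDP), Irf4 (10.4 and 13.2) and Zbtb46 (34.1 and 21.5) were low in CDP, and pre-cDC differed from CDP by 4.66, 3.28 and 2.87 on the log2 scale (adjusted p = 6.02e-12, 2.57e-10 and 1.12e-08). Irf8 was already at 4489.8 and 4936 in CDP, a log2 difference of 0.15 (adjusted p = 0.163), and Csf1r at 2910.5 and 3285 (0.11, adjusted p = 0.412). Id2 and Nfil3 were brightest in CDP, with 509 and 421 for Id2 and 449.6 and 429.9 for Nfil3, so that pre-cDC lay below CDP for both (-1.44 and -3.49, adjusted p = 8.25e-07 and 2.53e-10). Whereas Id2 remained above its GMP level in pre-cDC, Nfil3 read 11.2 and 8.94 in pre-cDC, against 58.2 and 42.8 in GMP.

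Granulocyte-macrophage factor genes were split, with 8 of 22 members higher, 8 lower and a median of 0.06. Gfi1, a repressor gene needed for neutrophil production, read 3.87 and 3.92 in pre-cDC and 543 and 585 in GMP (-4.05, SE 0.106, adjusted p = 9.13e-12). The C/EBP genes, which include drivers of the granulocyte and monocyte programmes, went different ways. Cebpa read 445 and 416 in pre-cDC and 692 and 743 in GMP (-0.70, SE 0.129, adjusted p = 0.000559), and Cebpb read 316 and 264 in pre-cDC and 754 and 659.8 in GMP (-1.20, SE 0.165). Cebpd read 784 and 734 in pre-cDC and 697 and 704 in GMP (adjusted p = 0.563), and Cebpg was higher (0.86, SE 0.105). Spi1, the PU.1 gene, read 753 and 659 in pre-cDC and 289 and 274 in GMP (1.23, SE 0.108). Its groups, like those of 69.4% of all genes, did not overlap. Of the members that were lower, Myb (-2.61) and Myc (-2.30) are factor genes of proliferating progenitors, with Myc at 181 and 211 in pre-cDC and 1001 and 1192 in GMP. Egr1 (2.89) and Jun (1.43) led the members that were higher, and both, like Fos, also stand in the immediate early list below. Runx2 and Cebpe were not analysed here.

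**Figure D3:**
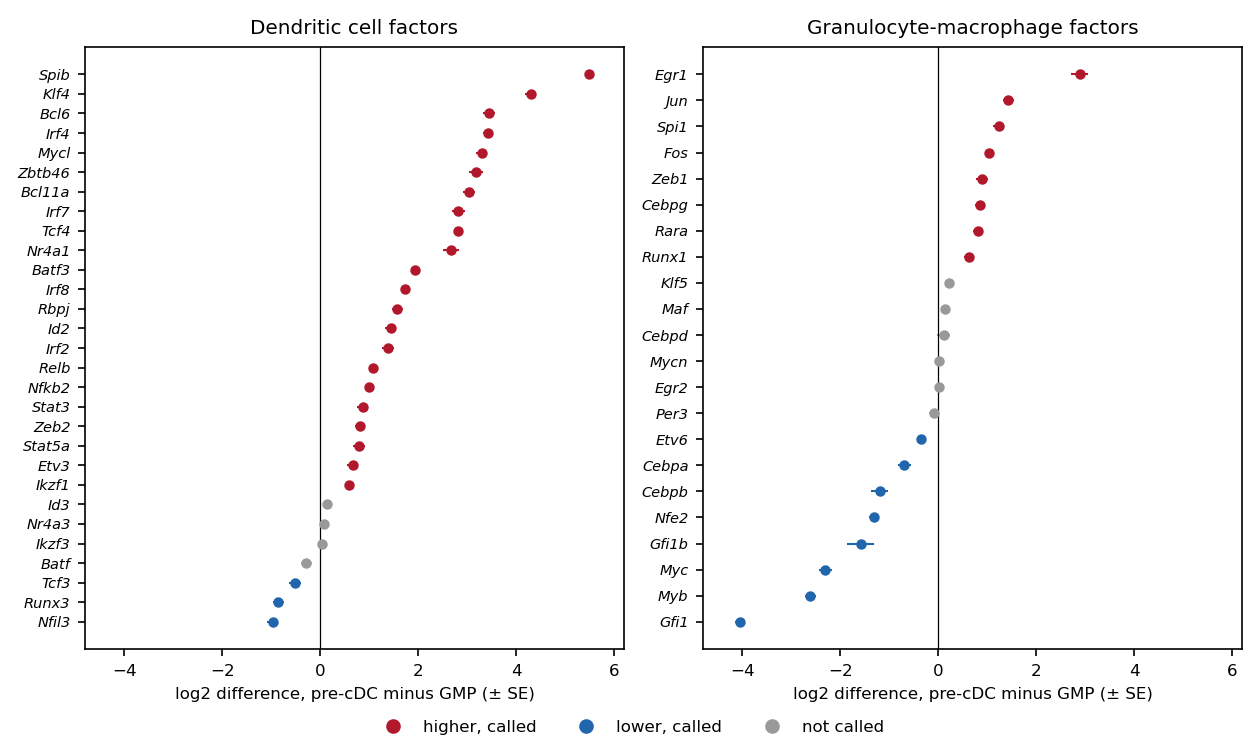
Log2 difference, pre-cDC minus GMP, with its standard error from the limma fit for every measured member of the dendritic cell (left, 29 genes) and granulocyte-macrophage (right, 22 genes) transcription factor lists. Red points were called higher, blue points lower and grey points not called; the dendritic list runs from -0.97 for Nfil3 to 5.50 for Spib and the granulocyte-macrophage list from -4.05 for Gfi1 to 2.89 for Egr1.

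Genes of mature dendritic cells and their subsets were higher in part. In the classical dendritic cell core list, 19 of 33 members were higher and 5 lower (median 0.31). Without the gated genes Flt3, Itgax and Kit, 17 of 30 were higher and 4 lower, with the same median. Those 4 were Spint2 (-1.89), Cd24a (-0.89), Fgl2 (-0.85) and Rab7b (-0.53). Kmo, a kynurenine pathway enzyme gene, read 1324 and 1174 in pre-cDC and 26.5 and 24.8 in GMP (4.47, SE 0.117), and Btla, an inhibitory receptor gene, read 1620.5 and 1897 in pre-cDC and 58.8 and 46.3 in GMP (4.40, SE 0.124). Ccr7, the receptor gene of migrating mature dendritic cells, stayed dim at 5.65 and 6.38 in pre-cDC and 3.62 and 2.26 in GMP (0.12, adjusted p = 0.235). Of 16 cDC1 genes, 9 were higher and 2 lower, led by Naaa (2.97), Rab43 (2.57) and Batf3. Xcr1, the chemokine receptor gene of mature cDC1, was at 5.25 and 8.04 in pre-cDC and 6.16 and 4.95 in GMP (adjusted p = 0.685), and Clec9a was not analysed here. The 2 cDC1 members that were lower, Ly75 (-0.23) and Itgae (-0.26), were dim in pre-cDC, and each lost its call when one or another single array was left out, for example at -0.19 for Ly75 and -0.21 for Itgae without GMP replicate 1.

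Of 17 cDC2 genes, 11 were higher and 2 lower, with a median of 0.63. Cd209a led, and Cd7, a small immunoglobulin superfamily receptor gene, read 1344 and 1201 in pre-cDC and 5.4 and 5.06 in GMP (5.13, SE 0.124). Clec10a, a galactose-binding lectin gene, read 683 and 776 in pre-cDC and 44.7 and 39.2 in GMP (3.36, SE 0.119). Mgl2, a close paralogue of Clec10a, moved the other way, at 8.62 and 6.8 in pre-cDC and 134 and 121 in GMP (-2.01, SE 0.0852). Its groups did not overlap, which held for 69.4% of all genes. Probe sets of such close paralogues can pick up each other's transcripts. Plasmacytoid genes were also higher, 15 of 20 with 1 lower and a median of 1.12. Siglech, a marker gene of plasmacytoid dendritic cells and their precursors, read 171 and 148 in pre-cDC and 6.87 and 8.88 in GMP (2.26, SE 0.107), and Bst2, the tetherin gene, read 2309.7 and 2009 in pre-cDC and 325 and 301 in GMP (2.66, SE 0.117). Ccr9, a homing receptor gene of these cells, was low, with 39.8 and 40.4 in pre-cDC and 15.2 and 11.7 in GMP (0.67, adjusted p = 0.000149). Spib, Irf7, Tcf4, Clec10a, Zbtb46, Bcl11a, Irf4, Batf3 and Septin3 stand in more than 1 of the dendritic lists, so the lists are not independent.

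Monocyte and macrophage genes were also higher, 16 of 24 with 4 lower (median 1.5). Their summed intensity was 47148 and 47854 in pre-cDC and 12128 and 9976 in GMP. Fn1, the fibronectin gene, read 1869.9 and 1862 in pre-cDC and 27.2 and 24.2 in GMP (5.04, SE 0.129). Csf1r, the M-CSF receptor gene of monocytes and dendritic precursors, read 3346 and 3356 in pre-cDC and 1705 and 1414 in GMP (1.09, SE 0.0949). Cd163, a haemoglobin scavenger receptor gene of mature macrophages, read 462 and 506 in pre-cDC, 309 and 301 in CDP and 20.3 and 19.7 in GMP (3.31 against GMP, SE 0.109). Of the other markers of mature cells, Mertk, Ms4a7 and Vcan were dim in both populations, and Adgre1 (F4/80) read 73.6 and 83.9 in pre-cDC and 92.3 and 78 in GMP (adjusted p = 0.617). F13a1, Clec4d, Fcgr4 and Cd14 were lower (log2 differences -1.54 to -0.22). Several members, such as Klf4, Cx3cr1 and Ccr2, are also expressed by dendritic precursors. Whether monocytes contributed to the pre-cDC samples was not tested.

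**Figure D4:**
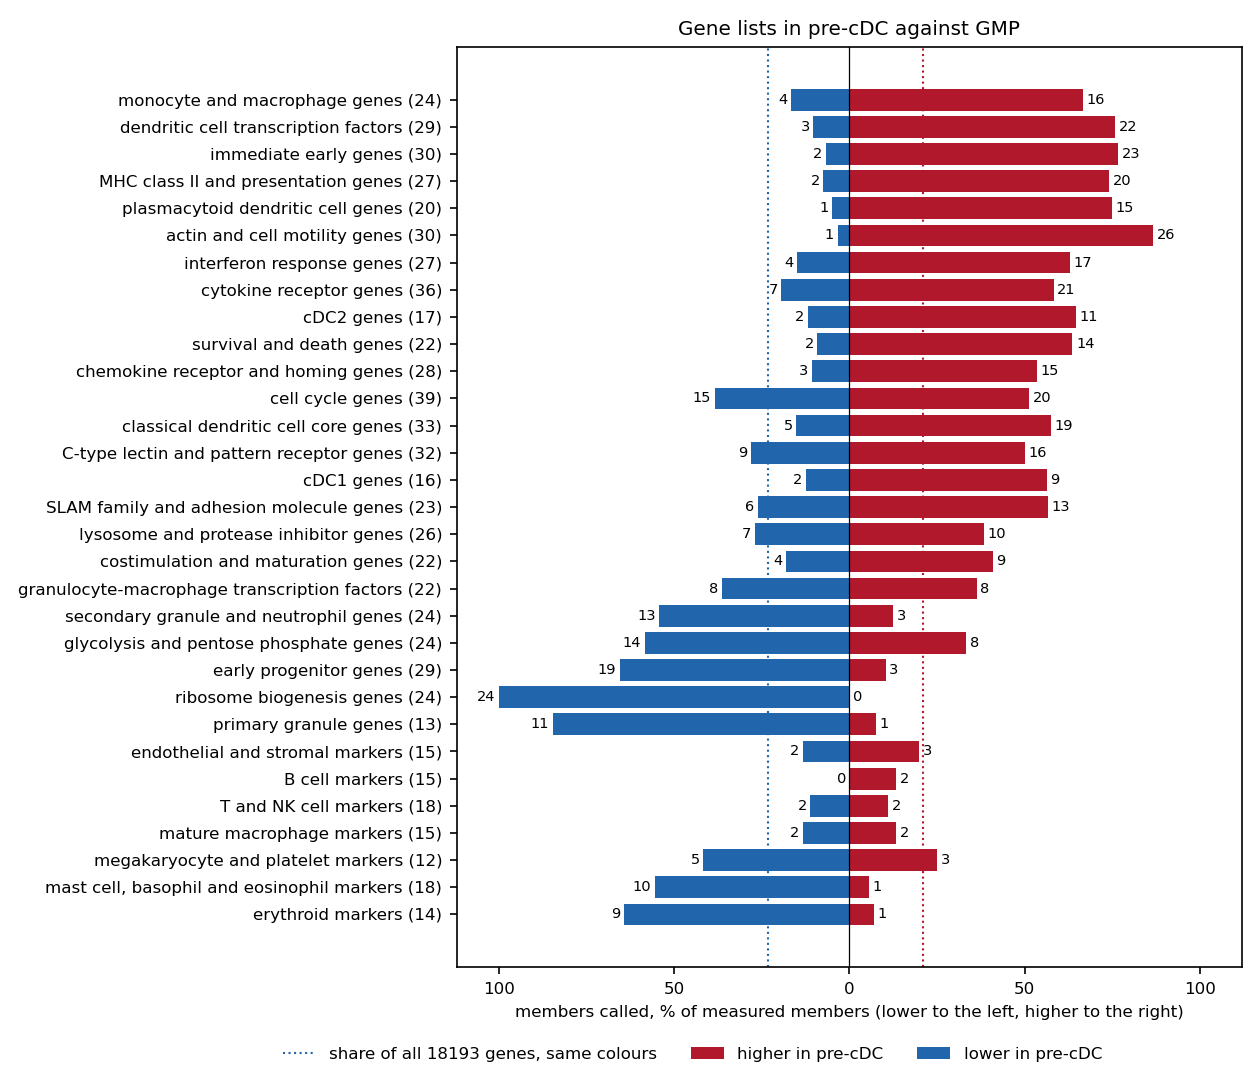
Share of the measured members of 31 gene lists that were called higher (red, right) or lower (blue, left) in pre-cDC against GMP, with the number of members called at the bar ends and the number measured in brackets; the first 24 lists are of the cells studied and the last 7 are markers of other cells, and the dotted lines give the shares over all genes, 21% and 23.1%. Dendritic, presentation, motility and immediate early lists extend to the right, and the ribosome biogenesis and primary granule lists to the left.

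Genes of receptors for homing and for growth factors were more often higher than lower. Of 28 chemokine receptor and homing genes, 15 were higher and 3 lower (median 0.47). Itgb7, the beta 7 integrin gene used for entry into gut tissue, read 2959.8 and 3110.4 in pre-cDC and 36.2 and 37.4 in GMP (5.48, SE 0.109). Cx3cr1, the fractalkine receptor gene, read 1670.5 and 1838 in pre-cDC and 76.1 and 61.3 in GMP (4.15, SE 0.114), and Ccr2, whose product guides monocytes out of the marrow, read 3424 and 3627 in pre-cDC and 445 and 319 in GMP (3.12, SE 0.133). All 3 were separate between the populations, as were 69.4% of all genes. Gpr183, an oxysterol receptor gene that positions dendritic cells in the spleen, rose by 3.60 (SE 0.107), and Itgb2, the beta 2 integrin gene, by 3.41 (SE 0.129). The laminin receptor gene Itga6 fell (-2.21, SE 0.114). Of 23 SLAM family and adhesion genes, 13 were higher and 6 lower; Cd244a (2.47) and Alcam (2.51) rose with Slamf7 (5.12, SE 0.124), and Vcam1 fell (-2.56, SE 0.0876).

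Of 36 cytokine receptor genes, 21 were higher and 7 lower, or 19 and 6 of 33 without Flt3, Kit and Il7r, which the sorts used. The receptor chains for GM-CSF, a growth factor of both lineages, were higher: Csf2ra read 2514 and 2923 in pre-cDC and 911 and 935 in GMP (1.52, SE 0.0983), and the common beta chain gene Csf2rb read 1231 and 1417 in pre-cDC and 846 and 803 in GMP (0.66, SE 0.102). Csf2rb2, the paralogue specific to IL-3 in mice, rose by 2.57 (SE 0.119), Il13ra1 by 2.43 and Il17ra by 2.63. Il6st, the gp130 gene, read 1582 and 1776 in pre-cDC, 1655 and 1602 in CDP and 327 and 269 in GMP. Of 32 C-type lectin and pattern receptor genes, 16 were higher and 9 lower: Cd209d (3.34), Clec4b1 (2.53) and Clec4a3 (2.04) rose with Cd209a, and Clec5a, whose product is a receptor of myeloid progenitors and neutrophils, fell (-2.42). Costimulation and maturation genes gave 9 higher and 4 lower of 22, and 10 of the 22 were dim in both populations. Tnfsf9, the 4-1BB ligand gene, read 492 and 600.5 in pre-cDC and 11.6 and 8.81 in GMP (3.77, SE 0.12), Icosl rose by 2.21 and Cd40 by 1.31, while Cd80, Cd83, Ccl17 and Ccl22 did not pass the test.

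Early progenitor genes were lower in pre-cDC, 19 of 29 with 3 higher (median -1.07), or 18 and 3 of 28 without Kit. Cd34, a sialomucin gene of stem and progenitor cells, read 63.5 and 42.3 in pre-cDC, 1551 and 1456 in CDP and 1163 and 1205 in GMP (-3.85 against GMP, SE 0.117, adjusted p = 3.06e-11). Prom1, which encodes CD133, read 4.89 and 3.0 in pre-cDC, 5.1 and 3.72 in CDP and 243 and 288 in GMP (-3.04), and Gpc1, a glypican gene, read 17.4 and 15 in pre-cDC, 44.9 and 41.9 in CDP and 372 and 413 in GMP (-3.14). Cd34 was thus bright in CDP and GMP, while Prom1 and Gpc1 were bright in GMP alone of these 3. Meis1, a homeobox gene of stem cells, read 34 and 30.6 in pre-cDC and 47.7 and 47 in GMP (-0.30, SE 0.119, adjusted p = 0.055), which did not pass the test.

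Genes of ribosome production were lower throughout: all 24 measured members were called lower in pre-cDC, with a median of -1.44 and differences from -2.22 to -0.37. Summed intensities were 13296 and 12422 in pre-cDC, 22193 and 23001 in CDP and 29483 and 31468 in GMP. Nolc1, a nucleolar phosphoprotein gene, read 255 and 207 in pre-cDC and 1127 and 1245 in GMP (-2.22, SE 0.107, adjusted p = 2.03e-09). Gnl3, the nucleostemin gene, read 245 and 294 in pre-cDC and 1201 and 1301 in GMP (-2.10, SE 0.153), and Dkc1, the dyskerin gene, 521 and 432 in pre-cDC and 1854 and 1948 in GMP (-1.93, SE 0.102). The arrays of the populations did not overlap for any of the 24 genes, against 69.4% of all genes without overlap. Rrs1 (-2.09), Wdr12 (-1.99) and Utp20 (-1.80) were the next largest. When either GMP array was left out, 23 of the 24 were called lower. Myc, known as an activator of such genes, was lower as given above, and whether it had a part in these falls was not tested.

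The cell cycle list was split by role, a division that was made after the values were seen. Over all 39 measured members, 20 were higher and 15 lower (median 0.40). Of 11 genes of origin licensing, the replication fork and nucleotide supply, 10 were lower and 0 higher (median -0.73), such as Mcm4 (-1.31), a subunit gene of the replicative helicase, at 669.5 and 594 in pre-cDC and 1598 and 1615 in GMP. Of 14 mitosis genes, 12 were higher and 0 lower (median 0.79), such as Mki67 (1.13), the proliferation marker gene, at 3913 and 4009 in pre-cDC and 1637 and 1949.5 in GMP. Among the cyclin D and kinase genes that start the cycle, Ccnd1 read 1594 and 1786 in pre-cDC and 121 and 143 in GMP (3.39, SE 0.169), whereas Ccnd2 read 213 and 156 in pre-cDC and 937 and 956 in GMP (-2.19, SE 0.118). Cdk6 read 515 and 524 in pre-cDC and 3279.6 and 3659 in GMP (-2.67, SE 0.0867). The inhibitor genes Cdkn2d (3.0) and Cdkn1b (2.06), and the factor gene E2f2 (2.03), rose. Ccnd1 and Cdk6 thus lay on opposite sides, with no overlap between arrays for either, as for 69.4% of all genes.

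**Figure D5:**
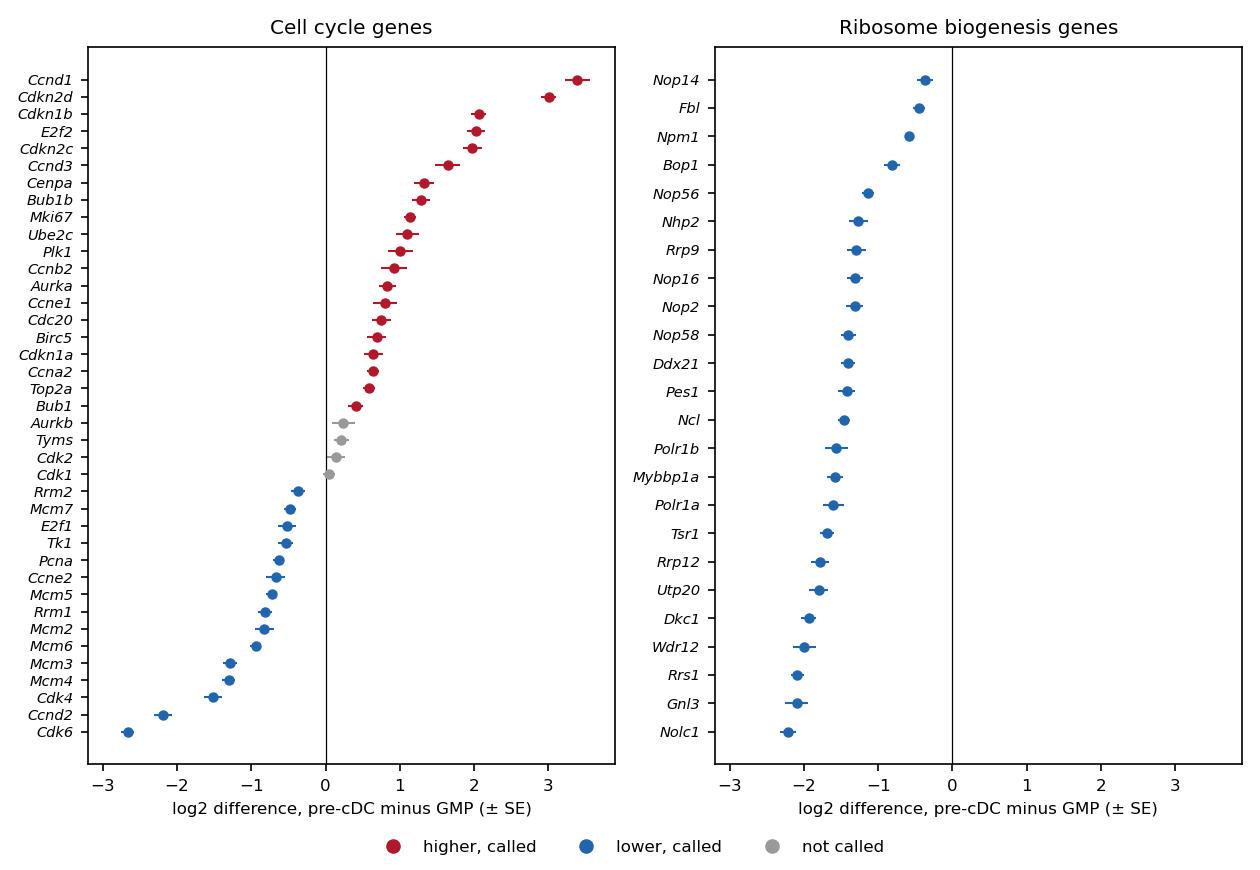
Log2 difference, pre-cDC minus GMP, with its standard error for the 39 measured cell cycle genes (left) and the 24 ribosome biogenesis genes (right), coloured as called higher (red), lower (blue) or not called (grey). Cyclin D1, CDK inhibitor and mitosis genes lie to the right of 0 and helicase, Cdk4, Ccnd2 and Cdk6 genes to the left, and every ribosome biogenesis gene lies to the left.

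Genes of sugar metabolism were mostly lower in pre-cDC, 14 of 24 with 8 higher (median -0.73). Slc16a1, the gene of the lactate transporter MCT1, read 47.1 and 39.5 in pre-cDC and 1018 and 1154 in GMP (-3.89, SE 0.111), and Hk3, a hexokinase gene of myeloid cells, read 90.3 and 82.6 in pre-cDC and 1638 and 1672 in GMP (-3.83, SE 0.105). Tpi1 (-2.44), Pgd (-2.05), an enzyme gene of the pentose phosphate pathway, and Ldhb (-1.77) also fell. Pfkfb4, which encodes an enzyme that makes an activator of glycolysis, rose, at 242 and 260.5 in pre-cDC and 56.8 and 66.3 in GMP (1.60, SE 0.111). For Pfkl and Pfkp, different probe sets of the gene were called in opposite directions.

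Immediate early genes, which are switched on quickly by stimulation, were higher, 23 of 30 with 2 lower (median 1.38). Atf3, a stress factor gene, read 1081 and 1003 in pre-cDC, 56.4 and 25.1 in CDP and 25.3 and 12.5 in GMP (4.41 against GMP, SE 0.178). Ier5 read 2056 and 2258 in pre-cDC and 81 and 87 in GMP (4.24, SE 0.101), the AP-1 gene Fosb 1363 and 1672 in pre-cDC and 99.2 and 114 in GMP (3.48, SE 0.12), and Zfp36, which encodes an RNA-destabilising protein, 3103 and 3362 in pre-cDC and 376 and 364 in GMP (3.02, SE 0.0852). Egr1 read 1251 and 1751 in pre-cDC and 185 and 160.2 in GMP, with the 2 pre-cDC arrays apart from each other but both above GMP. Fos itself was bright in all 4 samples, at 6406 and 6575 in pre-cDC and 3085 and 3209 in GMP (1.04). Ier3 (-1.93) and Gadd45b (-0.81) were the 2 members that were lower. Klf4, Nr4a1 and Nr4a3 also stand in the dendritic cell factor list.

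Interferon response genes were higher in 17 of 27 cases and lower in 4 (median 0.94). Ifi27l2a read 2630.0 and 2246 in pre-cDC and 14.3 and 15.5 in GMP, and Mx1, an antiviral GTPase gene, 576 and 626 in pre-cDC and 21.1 and 15.7 in GMP (3.65, SE 0.108). Irf7, the factor gene of the interferon programme, read 344 and 259 in pre-cDC and 16.3 and 13.3 in GMP (2.82, SE 0.133), and Irf9 rose by 2.32. Ifit1, Ddx58 and Ifih1, all part of the same response, did not pass the test (adjusted p = 0.316, 0.763 and 0.11). Gbp3, a guanylate-binding protein gene, fell (-2.95, SE 0.123), with 84.2 and 68 in pre-cDC, 597 and 647 in CDP and 884 and 730.0 in GMP.

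Genes of the actin cytoskeleton and cell movement were higher in 26 of 30 cases and lower in 1 (median 1.01). Lsp1, a leukocyte actin-binding protein gene, read 4365 and 3929.6 in pre-cDC and 97.8 and 100.4 in GMP (4.99, SE 0.121, adjusted p = 4.96e-12). Plek, the pleckstrin gene, read 2029 and 1967 in pre-cDC and 118 and 135 in GMP (3.68, SE 0.121), and Gsn, the gelsolin gene, 1210.2 and 1113 in pre-cDC and 72.2 and 84.1 in GMP (3.44, SE 0.147). Plekho1 (3.45), S100a10 (2.85) and Marcks (2.77) rose as well. Actb, the beta-actin gene often used as a constant control, read 9286 and 9336 in pre-cDC and 7880.5 and 8331 in GMP (0.20, SE 0.0698, adjusted p = 0.0331), and the call was lost when any one of these 4 arrays was left out (log2 differences 0.16 to 0.24).

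Lysosome and protease inhibitor genes gave 10 higher and 7 lower of 26 (median 0.17). Ctss, the cathepsin S gene that trims the invariant chain, read 6192 and 6266 in pre-cDC and 661 and 419 in GMP (3.49, SE 0.143), and Lgmn, the asparaginyl endopeptidase gene, 184 and 122 in pre-cDC and 3.58 and 5.66 in GMP (2.32, SE 0.166). Ctsh (2.63) and Cd68 (2.72) also rose, and the inhibitor genes Cst7 and Serpinb1a were the largest falls of the list. The abundant lysosomal membrane gene Lamp1 read 2288 and 2188 in pre-cDC and 2211 and 2183 in GMP (adjusted p = 0.817). Of 22 survival and death genes, 14 were higher and 2 lower (median 0.56). Pmaip1, the gene of the BH3-only protein NOXA, read 1493 and 1849 in pre-cDC and 43.9 and 37.4 in GMP (4.54, SE 0.121), and Mcl1, the survival gene whose product NOXA binds, read 4044 and 4649 in pre-cDC and 1244 and 1129 in GMP (1.84, SE 0.0846). The death gene Bmf (2.16) and the survival genes Pim1 (2.08) and Birc3 (2.0) rose as well. Bcl2, which was lower for the probe set used (-0.59), had other probe sets called higher.

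Markers of other cells moved with the populations in some lists. Of 14 erythroid markers, 9 were lower and 1 higher, with summed intensities of 2373 and 2480.5 in pre-cDC and 4392 and 7412 in GMP. The sums were 9138 and 6120 in the CMP arrays and 2163 and 2356 in the CDP arrays. The GMP arrays differed from each other here: Car2 read 5.59 and 10 in pre-cDC and 1384 and 2272 in GMP, Car1 11.4 and 15.2 in pre-cDC and 967 and 1825 in GMP, and the erythroid factor gene Klf1 10.2 and 12.1 in pre-cDC and 108 and 250.2 in GMP. GMP replicate 2 was the higher of the GMP arrays in each. The GMP label names no lineage gate, and whether erythroid cells entered the GMP samples was not tested. The late erythroid genes Hba-a1, Hbb-bh1, Alas2 and Slc4a1 were dim in both populations. Without GMP replicate 2, the log2 difference of Car2 was -5.15, and without GMP replicate 1 it was -5.86. Of 18 mast cell, basophil and eosinophil markers, 10 were lower and 1 higher (summed 158 and 193 in pre-cDC and 1229 and 1505 in GMP), led by the histidine decarboxylase gene Hdc at 2.52 and 2.39 in pre-cDC and 486 and 523 in GMP, while Fcer1a and Mcpt4 were dim in both populations. Epx, Prg2, Gata1 and Gata2 also stand in other lists. The part of such cells in the primary granule and other falls was not tested.

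Other lineage markers were mostly dim. Of 15 B cell markers, 2 were higher (Cd22 at 584 and 631 in pre-cDC and 5.27 and 3.33 in GMP, and Blnk) and 0 lower, while Cd79a and Ms4a1 were dim in both populations, and Cd79b, at 129.7 and 105 in pre-cDC and 142 and 128 in GMP, did not pass the test. Of 18 T and NK cell markers, 2 were higher and 2 lower; Klrd1, the CD94 gene, read 1439 and 1709 in pre-cDC and 6.23 and 6.05 in GMP (5.39, SE 0.114), and Cd3e, Cd3g, Eomes and Ncr1 were dim in both populations. Of 15 mature macrophage markers 2 were higher, Cd163 (3.31) and the mannose receptor gene Mrc1 (0.60), and 2 lower, the iron exporter gene Slc40a1 (-2.26) and Vcam1 (-2.56), and C1qa, C1qb and Marco were dim in both populations. Megakaryocyte markers gave 3 higher and 5 lower of 12, and endothelial and stromal markers 3 higher and 2 lower of 15. Called members made up 66.7% of the megakaryocyte list and 33.3% of the endothelial and stromal list. The share was 13.3% for B cell, 22.2% for T and NK cell and 26.7% for mature macrophage markers, against 44% of all genes. Members dim in both populations numbered 10 of the 15 B cell, 12 of the 18 T and NK cell, 10 of the 15 mature macrophage and 11 of the 15 endothelial and stromal markers.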

How the data were processed

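RNA of sorted bone marrow cells was labelled with biotin and hybridised to Affymetrix 3' expression arrays, per the labels' protocols. The authors deposited 1 intensity per probe set and array on a linear scale; the background correction, probe summary and scaling behind it are not given in the sources used here, no detection call comes with the values, and the number of arrays limits the precision. Of 45037 probe sets, 34945 have 1 gene symbol in the platform annotation, 932 several and 9160 none. Where a gene had several probe sets, the brightest on average across the 15 arrays stood for it, which left 18193 genes.

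Values were taken as log2(intensity + 32) and fitted with limma 3.58.1 in R 4.3.3 (group means of 8 arrays, moderated with an intensity trend, 4 residual degrees of freedom and 12.6 after moderation), with two-sided p-values adjusted by Benjamini and Hochberg's method across the 18193 genes and called under 0.05. All adjusted p-values in the text come from this fit. Of the gene list symbols, 639 of 693 were matched, and 47 of 50 of a panel of lineage genes. The members and lists were chosen with earlier results of these data known.

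Genes were named by rule: the 12 largest rises and 12 largest falls whose arrays did not overlap, the panel, up to 6 called members per list, and members needed to account for a list. Other named genes, among them members that went against their list, were chosen after their values were seen. The alternatives were other added constants, normalizations, filters, probe set choices and array sets, and leaving out each array. Promoter sequences are RefSeq's (GRCm38.p6).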

Additional observations from a re-analysis of the deposited data

How the results depend on the processing

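Without 1 array, 6713 to 8166 genes were called and 2343 to 2597 of them at least 2-fold, so both counts stayed within 1.5 times those given. They moved more when every probe set with 1 gene was tested, with 14450 of 34945 probe sets called and 4068 at least 2-fold, because more features were tested, and when 1 was added in place of 32, with 4200 genes at least 2-fold. Quantile normalization gave 3364 higher and 5017 lower genes, and scaling to 1 median 3450 and 4712. Of 657 genes followed through the alternatives, 4 turned when the probe set was chosen by its mean over the 8 arrays: Nectin2 (0.14), Ifngr2 (1.58), Ccne1 (-0.37) and Pdgfra (-0.25). Among the 657, 11 genes had probe sets called in opposite directions. Others had a probe set with nearly no difference beside the one used, such as Mgst1 (-0.02) and Slc16a1 (-0.15). Calls of dim or weakly different genes such as Lum, Nectin2, Ly96, Hk2 and Cd14 were lost when single arrays were left out. With the replicate number as a block, 8161 genes were called and 2444 at least 2-fold. Same-numbered arrays deviated from their group means with correlations of -0.0222 to 0.181 between groups (0.0651 for pre-cDC and GMP), so the numbers were not taken to pair the arrays. Differences of genes that are dim in one population depend on the added constant, and the values carry no detection call that would set a lower limit.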

Other observations

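Some large differences lay outside the gene lists, and the genes given here were chosen after their values were seen. They are single genes, and other members of their pathways were not counted. Gstm1, a glutathione transferase gene, read 47.4 and 36.1 in pre-cDC and 2601 and 2754 in GMP, and Gsr, the glutathione reductase gene, read 84.6 and 59.3 in pre-cDC and 1528 and 1613 in GMP (-3.96, SE 0.15). Both were separate between the populations, as were 69.4% of all genes. Mt1, a metallothionein gene, fell, with a log2 difference of -4.32, and so did Alas1, which encodes the first enzyme of haem synthesis (-4.45), Phgdh, of serine synthesis (-3.52), Asns, of asparagine synthesis (-2.87), and Srm, of spermidine synthesis (-3.68). All of these passed the test.

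On the other side, Rnase6, a ribonuclease gene of myeloid cells, read 2278 and 2242 in pre-cDC and 11.3 and 15.9 in GMP (5.65, SE 0.108), and Lifr, the receptor gene for leukaemia inhibitory factor, read 717 and 1083 in pre-cDC and 1.0 and 7.13 in GMP (4.67, SE 0.189). The factor genes Nfatc2 (4.55), Bach2 (3.93) and Bhlhe40 (3.43), the prostaglandin receptor gene Ptger4 (3.42), the inhibitory receptor gene Pirb (4.24) and Fcgrt (3.96), the gene of the neonatal Fc receptor, rose as well. Of 6 probe sets of Nfatc2, only 1 was called. The probe sets of Bach2 ran from 0.33 to 3.93 and those of Lifr from 0.06 to 4.67. The 10092 probe sets with no gene or several genes were tested in a fit of their own. Of these, 2852 were called, 2147 higher and 705 lower in pre-cDC. Among the genes of the main fit, 44% were called, 21% higher and 23.1% lower.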
